A study of Mus musculus with 12 samples.

Results

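Genes of the actin cytoskeleton and of cell shape on the X chromosome were examined, 10 in number: Flna, Msn, Dmd, Tmsb4x, Fhl1, Diap2, Shroom2, Shroom4, Arhgap4 and Plxna3. They were chosen by name, and all 10 of the 10 had a value in every ChIP library, out of 952 X-linked genes listed and 698 with a value in every library. ChIP-seq, in which fragments bound by an antibody are sequenced, gave the histone marks H3K27me3 and H3K9me3 along the X in cells from female mice that lack or carry SmcHD1, an SMC-family chromosomal protein required to keep the inactive X silent. The question was where each mark depends on SmcHD1 at a pair of developmental stages. MD1 cells had the genotype Smchd1 MD1/MD1 Xist deltaA/+, and WT cells had Smchd1 +/+ Xist deltaA/+. Every group, WT included, therefore carried 1 deltaA allele of Xist. That mutation removes the silencing element of Xist RNA, so inactivation falls on the homologue with the intact allele. Mouse embryonic fibroblasts (MEFs) came from E13.5 embryos and epiblast stem cells (EpiSCs) from E6.5 embryos, all from crosses of C57BL6/J with (JF1 x C57BL6/J F1) animals. The 12 samples were 8 ChIP libraries and 4 inputs, with 1 library for each mark, genotype and cell type. The labels do not say whether a library came from 1 embryo, 1 line or a pool. Cell identity and loss of Smchd1, an autosomal gene, were not checked, because the values cover X-linked genes and no expression.

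Actin filaments give a cell its shape and its contractile force. Monomer-binding proteins hold actin subunits in reserve, formins assemble filaments, crosslinkers join filaments into networks, and linkers tie them to the plasma membrane. Fibroblasts in culture are known for thick contractile actin bundles. On the inactive X, H3K27me3 is deposited by Polycomb complexes after Xist RNA coats the chromosome, and H3K9me3 is the mark of constitutive heterochromatin.

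Each deposited value is the log2 enrichment of 1 gene in 1 ChIP library, so that 0 stands for input level on the deposited scale and 1 for 2-fold enrichment. The values were read as a whole-number ChIP count over a whole-number input count, times a constant of the library. The smallest such counts over all genes summed to between 33117 and 188886 for H3K9me3, between 879526 and 1804080 for H3K27me3 and between 181233 and 327173 for inputs. They gave 95% counting intervals, printed in brackets after a change, which cover counting error only. Changes are MD1 minus WT on the log2 scale, and a gene was called at a change of 2-fold. With 1 library per group there was no test across samples and no replicate check. Fewer cells that carry a mark and less of the mark in each cell cannot be told apart in such bulk samples.

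Without SmcHD1 these genes differed from each other in H3K27me3. In MD1 MEFs, Flna, Msn and Plxna3 had H3K27me3 far under input, while Dmd, Diap2 and Fhl1 were about 2-fold higher than in WT. These counts, 3 lower and 3 higher of 10, were near the shares of all X-linked genes, 24.0% lower and 22.3% higher. After centring on the median of all genes 0 of the 10 were called higher. In MD1 EpiSCs Flna, Msn and Plxna3 stood near their WT levels. Shroom2 was the 1 gene called lower there, where 11.3% of all X-linked genes were. H3K9me3 was lower at 10 of the 10 genes in both cell types as deposited, where 91.9% of all X-linked genes were lower in MEFs and 95.9% in EpiSCs. The plot of enrichment at the 10 genes shows each value with its counting interval.

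**Figure D1:**
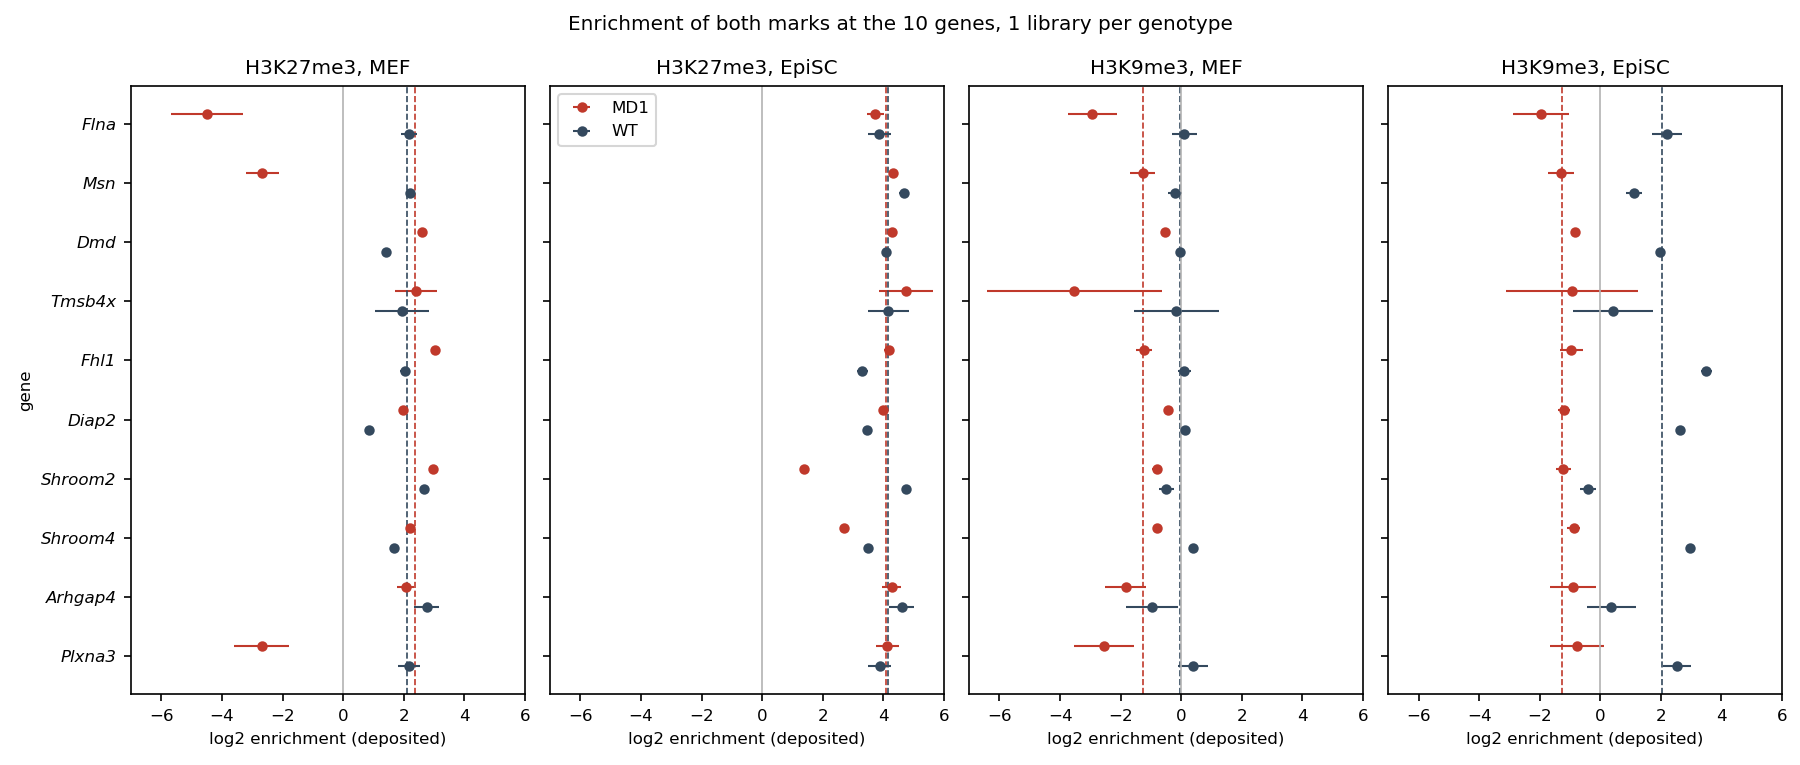
Log2 enrichment of H3K27me3 and H3K9me3 at the 10 genes in MEFs and EpiSCs. Red points are MD1 and dark points WT (1 library each), horizontal bars are 95% counting intervals, dashed lines are the medians of all X-linked genes in each library, and the grey line marks 0. Flna (−4.49), Plxna3 (−2.69) and Msn (−2.66) stand apart in the MD1 MEF H3K27me3 library, and Shroom2 (1.36) in the MD1 EpiSC one.

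In MEFs, H3K27me3 was at least 2-fold lower in MD1 at 3 of the 10 genes, where 24.0% of 739 X-linked genes were lower. It was at least 2-fold higher at 3 of the 10, where 22.3% of all genes were higher. All 3 of the lower genes were at least 8-fold lower, a size that 11.0% of all genes reached, and in MD1 they were the 3 of the 10 under input, where 17.8% of all genes were. The median change was 0.38 over the 10 genes and 0.34 over all genes, and 61.4% of all genes had a change above 0.

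Flna encodes filamin A, which crosslinks actin filaments into networks and anchors them to membrane proteins (X, 71468800 to 71491873, mm9, minus strand). Its H3K27me3 enrichment was −4.49 in MD1 MEFs and 2.18 in WT MEFs. The change of −6.67 (−7.87 to −5.47) was a 102-fold lower enrichment and lay at the 0.947 percentile of all genes. The MD1 value rested on a ChIP count of 6 against 190 in the input. With a pseudocount of 0.1 added to the linear enrichment the change was −5.00.

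Plxna3 encodes plexin A3, a semaphorin receptor that makes axonal growth cones retract by acting on their cytoskeleton (71574405 to 71590028, plus strand). It lies 82.5 kb from Flna. Its H3K27me3 was −2.69 in MD1 MEFs and 2.19 in WT MEFs, a change of −4.88 (−5.85 to −3.91) and a 29.4-fold lower enrichment, on an MD1 ChIP count of 11 against 100 in the input. Msn encodes moesin, which ties cortical actin to the plasma membrane (93291384 to 93363892, plus strand). Its H3K27me3 was −2.66 in MD1 MEFs and 2.21 in WT MEFs, a change of −4.87 (−5.45 to −4.30) and a 29.3-fold lower enrichment, on an MD1 ChIP count of 29 against 258. With the pseudocount the changes were −4.19 (Plxna3) and −4.20 (Msn). In WT MEFs these 3 genes stood near the middle of all genes, at the 55.4 (Flna), 56.2 (Plxna3) and 57.8 (Msn) percentiles of the library. In MD1 MEFs they lay at the 0.663 (Flna), 4.24 (Plxna3) and 4.64 (Msn) percentiles.

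The 250 bases before the start of each of these 3 genes, and of Shroom2, which is described further on, are shown because these are the members called lower in H3K27me3 in MD1 cells. The sequences are from RefSeq on GRCm38.p6, whose coordinates are not those of mm9, and run 5′ to 3′ on the gene's strand, with each CpG dinucleotide in capitals. For Shroom2 the most upstream of 4 entries is given.
Flna (chrX:74246535-74246784, minus strand): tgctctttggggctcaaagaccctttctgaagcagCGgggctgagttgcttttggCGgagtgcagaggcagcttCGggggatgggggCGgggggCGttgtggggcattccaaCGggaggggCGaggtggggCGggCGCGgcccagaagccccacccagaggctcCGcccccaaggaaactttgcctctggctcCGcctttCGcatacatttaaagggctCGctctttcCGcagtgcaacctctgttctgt
Plxna3 (chrX:74328816-74329065, plus strand): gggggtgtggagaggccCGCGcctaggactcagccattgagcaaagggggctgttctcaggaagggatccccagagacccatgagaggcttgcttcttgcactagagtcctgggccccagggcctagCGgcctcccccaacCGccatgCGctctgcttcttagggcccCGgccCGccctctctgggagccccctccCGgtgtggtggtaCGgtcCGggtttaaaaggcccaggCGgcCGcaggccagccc
Msn (chrX:96095795-96096044, plus strand): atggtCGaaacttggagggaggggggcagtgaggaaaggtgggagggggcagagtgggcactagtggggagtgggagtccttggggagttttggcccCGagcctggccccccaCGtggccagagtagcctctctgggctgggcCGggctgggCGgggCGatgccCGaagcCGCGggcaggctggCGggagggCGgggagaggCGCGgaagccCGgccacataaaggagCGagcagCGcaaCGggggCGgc
Shroom2 (chrX:152769487-152769736, minus strand): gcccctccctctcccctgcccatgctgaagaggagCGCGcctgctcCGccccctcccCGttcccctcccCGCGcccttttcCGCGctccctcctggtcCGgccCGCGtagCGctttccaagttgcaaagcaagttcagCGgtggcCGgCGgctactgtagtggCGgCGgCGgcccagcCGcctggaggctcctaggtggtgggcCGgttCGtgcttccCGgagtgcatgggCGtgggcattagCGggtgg
These windows hold 15 (Flna), 12 (Plxna3), 18 (Msn) and 24 (Shroom2) CpG dinucleotides. The entries of Shroom2 that are not shown held 1, 0 and 4. The median over 1223 X-linked promoter entries, not limited to the most upstream entry of each gene, was 5. CpG content did not set these genes apart from the other members, since Tmsb4x (15), Diap2 (16), Arhgap4 (10) and Shroom4 (10) were also above that median in their most upstream entry. The deposited values describe whole genes, so no value belongs to these windows alone.

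The 3 genes called higher in MD1 MEFs include the longest of the 10, Dmd and Diap2. Dmd, 2256 kb long, encodes dystrophin, which links actin to the dystroglycan complex of the muscle membrane (80194209 to 82450389). Its H3K27me3 was 2.62 in MD1 MEFs and 1.43 in WT MEFs, a change of 1.19 (1.15 to 1.22). Diap2, a formin gene that RefSeq lists as Diaph2 (126284278 to 127000369), had 1.97 in MD1 MEFs and 0.85 in WT MEFs, a change of 1.13 (1.04 to 1.21). Fhl1, which encodes a LIM domain scaffold protein of muscle (53984938 to 54046523), had 3.04 in MD1 MEFs and 2.04 in WT MEFs, a change of 1.01 (0.82 to 1.20). These 3 calls depended on the scale of the libraries. After each library was centred on the median of all genes the changes were 0.90 (Dmd), 0.84 (Diap2) and 0.72 (Fhl1), and the split of calls among the 10 genes was 3 lower and 0 higher in place of 3 and 3. Over all 739 genes it was then 194 lower and 118 higher.

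The remaining 4 genes were not called in MEFs. Shroom2 and Shroom4 encode actin-binding proteins of the Shroom family, which is known for shaping epithelial cells by contraction of the cell cortex. Shroom2 (149044052 to 149204029) had 2.98 in MD1 MEFs and 2.68 in WT MEFs, a change of 0.29 (0.13 to 0.45). Shroom4 (5977263 to 6210835) had 2.21 in MD1 MEFs and 1.66 in WT MEFs, a change of 0.54 (0.42 to 0.67). Tmsb4x encodes thymosin beta 4, which sequesters actin monomers, and at 2125 bases it was the shortest of the 10 genes (163645026 to 163647150). It had 2.41 in MD1 MEFs and 1.93 in WT MEFs, and its interval (−0.64 to 1.59) included 0. Arhgap4 encodes a GTPase-activating protein (71139691 to 71156637). It had 2.07 in MD1 MEFs and 2.76 in WT MEFs, a change of −0.69 (−1.19 to −0.18).

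Genes beside Flna and Plxna3 also had less H3K27me3 in MD1 MEFs. Emd, which encodes the nuclear envelope protein emerin and begins 8.15 kb from Flna, had −4.83 in MD1 MEFs and 1.99 in WT MEFs. Fam50a, 8.92 kb from Plxna3, had −5.53 in MD1 MEFs and 3.34 in WT MEFs, and Lage3, 7.47 kb from it on the other side, had −3.68 in MD1 MEFs and 2.69 in WT MEFs. Tktl1, on the far side of Flna at 15.0 kb, had 0.22 in MD1 MEFs and 2.64 in WT MEFs. Within 1 Mb of the 5′ end of Flna, a window chosen after the values were seen, 32 of 46 genes were at least 2-fold lower, against 24.0% of all genes, and the median change was −3.25. Flna itself and Plxna3 are counted among these 32. In EpiSCs 14 of the 46 genes were at least 2-fold lower in MD1, against 11.3% of all genes, without Flna and Plxna3. There 4 were at least 2-fold higher, against 22.7% of all genes, and the median change was −0.57.

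Arhgap4 lies in the same window, 312 kb from Flna, and stayed above input, although it was lower in MD1 by less than 2-fold. It stood at the 39.9 percentile of the MD1 MEF library, against the 88.0 percentile of the WT one. Its neighbours differed from each other. Avpr2, a vasopressin receptor gene whose annotation overlaps that of Arhgap4 by 0.077 kb, had 2.36 in MD1 MEFs and 3.34 in WT MEFs. Naa10, an N-terminal acetyltransferase gene 5.57 kb away on the other side, had −2.12 in MD1 MEFs and 1.93 in WT MEFs.

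Msn stood in different surroundings. Las1l, 139 kb from it, had −1.43 in MD1 MEFs and 2.80 in WT MEFs, but Vsig4, 78.6 kb away on the other side, had 2.45 in MD1 MEFs and 1.82 in WT MEFs. Only these 2 of the 12 genes within 1 Mb of Msn, Msn itself and Las1l, were at least 2-fold lower in MD1 MEFs. The median change in that window was 0.49.

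**Figure D2:**
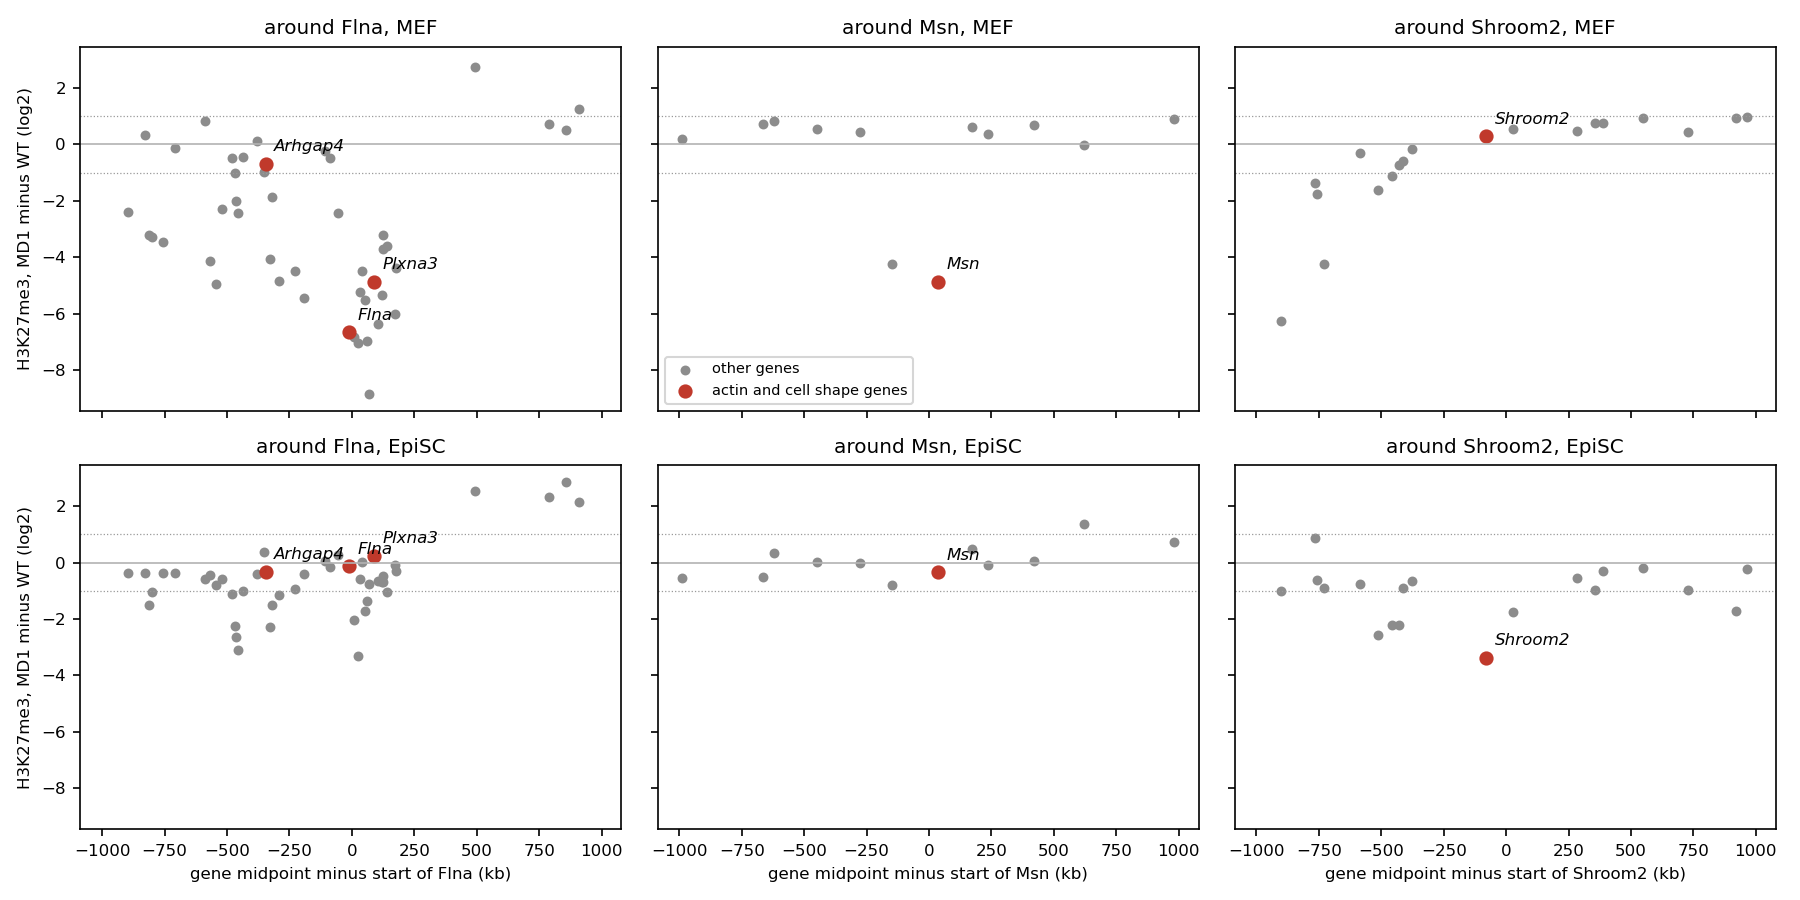
H3K27me3 change (MD1 minus WT, log2) of genes with values in all libraries within 1 Mb of the start of Flna, Msn or Shroom2, in MEFs (upper row) and EpiSCs (lower row). Red points are the actin and cell shape genes, grey points other genes, and dotted lines mark 2-fold. In MEFs 32 of 46 genes around Flna lie at or under the lower line, against 2 of 12 around Msn. Each count includes the gene at the centre of the window. In EpiSCs Shroom2 has the lowest value in its window.

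In EpiSCs, H3K27me3 was at least 2-fold lower in MD1 at 1 of the 10 genes, where 11.3% of 708 X-linked genes were lower, and at least 2-fold higher at 0 of the 10, where 22.7% of all genes were higher. The median change was 0.04 over the 10 genes and −0.069 over all genes. The gene called lower was Shroom2, with 1.36 in MD1 EpiSCs and 4.73 in WT EpiSCs. The change of −3.37 (−3.52 to −3.21), a 10.3-fold lower enrichment where 1.13% of all genes were at least 8-fold lower, rested on large counts, with an MD1 ChIP count of 1505 against 1004 in the input. Shroom2 stood at the 4.89 percentile of the MD1 EpiSC library, against the 81.1 percentile of the WT one. Its value in MD1 EpiSCs was still above input, unlike those of Flna, Msn and Plxna3 in MD1 MEFs.

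The gene next to Shroom2 was lower as well. Gpr143, a pigment cell receptor gene 12.4 kb away, had 2.97 in MD1 EpiSCs and 4.74 in WT EpiSCs, a change of −1.77. On the other side 3010001F23Rik, 193 kb away, had 4.06 in MD1 EpiSCs and 4.70 in WT EpiSCs. Within 1 Mb of Shroom2, 6 of 19 genes were at least 2-fold lower in MD1 EpiSCs, against 11.3% of all genes. Shroom2 itself, on which the window was centred, and Gpr143 are counted among these 6. In MD1 MEFs, where Shroom2 itself was not lower, 6 of the 19 were lower, against 24.0% of all genes. These were mostly other genes: only Kdm5c and Kantr were lower in both cell types, and Gpr143 had a change of 0.53 in MEFs.

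Shroom4 had 2.71 in MD1 EpiSCs and 3.48 in WT EpiSCs, a change of −0.77 (−0.92 to −0.63), which did not reach 2-fold. A gene whose annotation overlaps Shroom4 over 122 kb, 5430428K19Rik, had nearly the same values, 2.74 in MD1 EpiSCs and 3.38 in WT EpiSCs. Reads in such an overlap may have been counted for both. Fhl1 came closest to 2-fold in the other direction, with 4.19 in MD1 EpiSCs and 3.31 in WT EpiSCs, a change of 0.88 (0.65 to 1.11). Mtap7d3 beside it was higher too and had 4.24 in MD1 EpiSCs and 2.94 in WT EpiSCs.

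Flna, Msn and Plxna3 were not called in EpiSCs. Flna had 3.74 in MD1 EpiSCs and 3.87 in WT EpiSCs, and its interval (−0.62 to 0.34) included 0. Emd beside it was lower here as in MEFs, with 1.90 in MD1 EpiSCs and 3.94 in WT EpiSCs. Msn had 4.33 in MD1 EpiSCs and 4.68 in WT EpiSCs, a change of −0.35 (−0.57 to −0.12). Plxna3 had 4.13 in MD1 EpiSCs and 3.88 in WT EpiSCs, with an interval of −0.29 to 0.79. Of the others, Dmd had 4.30 in MD1 EpiSCs and 4.09 in WT EpiSCs, a change of 0.22 (0.17 to 0.26). Diap2 had 3.98 in MD1 EpiSCs and 3.47 in WT EpiSCs, a change of 0.51 (0.42 to 0.61). Tmsb4x (4.75 in MD1 EpiSCs and 4.17 in WT EpiSCs) and Arhgap4 (4.28 in MD1 EpiSCs and 4.60 in WT EpiSCs) had intervals that included 0.

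The H3K27me3 changes were then set against each other between the cell types, as the change in MEFs minus the change in EpiSCs. This difference was −6.53 (−7.83 to −5.24) at Flna, −5.13 (−6.24 to −4.02) at Plxna3 and −4.53 (−5.14 to −3.91) at Msn, where the median of 698 genes was −0.002. At Shroom2 it was 3.66 (3.44 to 3.88), at the 99.6 percentile of all genes. At Shroom4 it was 1.32 (1.13 to 1.50), at Dmd 0.97 (0.92 to 1.03) and at Diap2 0.62 (0.49 to 0.75). The intervals at Tmsb4x, Fhl1 and Arhgap4 included 0. No test across samples stands behind these differences.

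**Figure D3:**
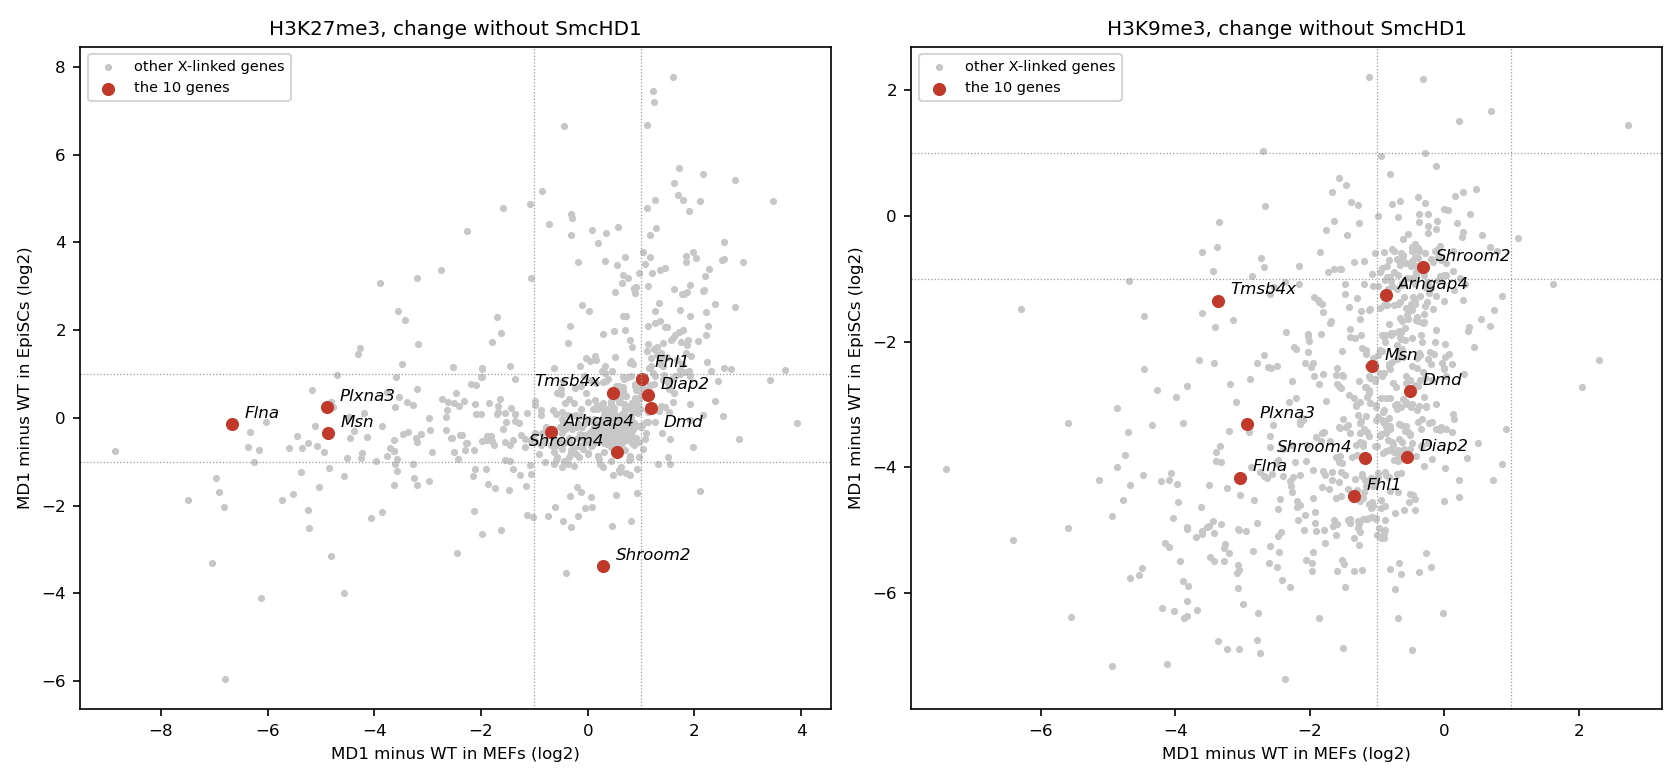
Change of H3K27me3 (left) and H3K9me3 (right) without SmcHD1, as MD1 minus WT log2 enrichment in MEFs (horizontal axis) and in EpiSCs (vertical axis), for 698 X-linked genes. Red points are the 10 genes and dotted lines mark 2-fold. For H3K27me3, Flna, Plxna3 and Msn lie far to the left near 0 on the vertical axis, and Shroom2 lies near 0 on the horizontal axis at −3.37 on the vertical one.

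H3K9me3 in MEFs was at least 2-fold lower in MD1 at 6 of the 10 genes, where 51.3% of all genes were lower, and at least 2-fold higher at 0 of the 10, where 0.677% of all genes were higher. The median change was −1.13 over the 10 genes and −1.02 over all genes, so the count was near that of the library as a whole. Flna and Tmsb4x were at least 8-fold lower, 2 of the 10, where 13.1% of all genes were. Centred on the median of all genes, the median of the 10 became 0.066 and 3 genes (Flna, Plxna3 and Tmsb4x) were still called lower, where 163 of 739 genes were lower and 91 higher.

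Flna had H3K9me3 of −2.94 in MD1 MEFs and 0.10 in WT MEFs, a change of −3.03 (−3.94 to −2.13). Plxna3 had −2.54 in MD1 MEFs and 0.39 in WT MEFs, a change of −2.93 (−4.04 to −1.82). These 2 genes were thus lower in both marks in MD1 MEFs, also after centring, when their H3K9me3 changes were −1.84 (Flna) and −1.74 (Plxna3). Msn differed from them, with −1.27 in MD1 MEFs and −0.19 in WT MEFs, a change of −1.07 (−1.55 to −0.60) that became 0.12 after centring.

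Tmsb4x had −3.53 in MD1 MEFs and −0.16 in WT MEFs, but the MD1 value rested on a ChIP count of 1 and the interval of the change ran from −6.58 to −0.16. Fhl1 had −1.24 in MD1 MEFs and 0.10 in WT MEFs, and Shroom4 had −0.79 in MD1 MEFs and 0.39 in WT MEFs. Both were called as deposited but not after centring, with changes of −0.15 (Fhl1) and 0.016 (Shroom4). Not called were Dmd (−0.54 in MD1 MEFs and −0.04 in WT MEFs), Diap2 (−0.43 in MD1 MEFs and 0.12 in WT MEFs), Shroom2 (−0.80 in MD1 MEFs and −0.49 in WT MEFs) and Arhgap4 (−1.83 in MD1 MEFs and −0.96 in WT MEFs). The 3 longest genes of the 10, Dmd, Diap2 and Shroom4, had changes from −1.18 to −0.50.

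H3K9me3 in EpiSCs was at least 2-fold lower in MD1 at 9 of the 10 genes, where 82.9% of all genes were lower, and at least 2-fold higher at 0 of the 10, where 1.13% of all genes were higher. The median change was −3.05 over the 10 genes and −2.98 over all genes, and 5 of the 10 were at least 8-fold lower, where 49.4% of all genes were. Of the 9, Tmsb4x had an interval that included 0 (−3.89 to 1.20). Centring on the median of all genes removes whatever most genes share: it left 1 gene called lower, Fhl1 at −1.16, and 3 called higher, Tmsb4x (1.95), Shroom2 (2.48) and Arhgap4 (2.04). Under the same centring 162 of 708 genes were lower and 272 higher.

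In MD1 EpiSCs 0 of the 10 genes had H3K9me3 of at least 2-fold over input, where 5.3% of all genes had it, and in WT EpiSCs 7 of the 10 had it, where 64.0% of all genes had it. Fhl1 ranked highest of the 10 in WT, with −0.95 in MD1 EpiSCs and 3.50 in WT EpiSCs, a change of −4.45 (−4.88 to −4.02). Shroom4 had −0.88 in MD1 EpiSCs and 2.97 in WT EpiSCs, and Diap2 had −1.19 in MD1 EpiSCs and 2.65 in WT EpiSCs. Flna had −1.96 in MD1 EpiSCs and 2.20 in WT EpiSCs, a change of −4.16 (−5.22 to −3.10).

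Plxna3 had −0.76 in MD1 EpiSCs and 2.54 in WT EpiSCs, Dmd had −0.82 in MD1 EpiSCs and 1.96 in WT EpiSCs, and Msn had −1.28 in MD1 EpiSCs and 1.10 in WT EpiSCs. The 3 genes under 2-fold in WT EpiSCs were Tmsb4x (−0.92 in MD1 EpiSCs and 0.42 in WT EpiSCs), Arhgap4 (−0.90 in MD1 EpiSCs and 0.36 in WT EpiSCs) and Shroom2 (−1.22 in MD1 EpiSCs and −0.40 in WT EpiSCs). Shroom2, the member called lower in H3K27me3 in MD1 EpiSCs, thus had the lowest WT H3K9me3 of the 10, and its H3K9me3 change of −0.82 (−1.17 to −0.46) was the smallest. The genes lay closer together in MD1 EpiSCs than in WT EpiSCs, with H3K9me3 from −1.96 to −0.76 in MD1 EpiSCs, against −0.40 to 3.50 in WT EpiSCs. In MEFs they lay farther apart, with H3K9me3 over a range of 3.10 in MD1 MEFs against 1.35 in WT MEFs. The lowest value in MD1 MEFs was that of Tmsb4x, on a ChIP count of 1. These H3K9me3 ranges were not computed over all genes, so a spread particular to these genes is not shown.

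The H3K9me3 changes also differed in size between the cell types, as the change in MEFs minus the change in EpiSCs, where the median of 698 genes was 1.57. This difference was 3.28 (3.04 to 3.53) at Diap2 and 3.11 (2.57 to 3.66) at Fhl1, the genes whose decrease was smaller in MEFs by the most among the 10. At Flna (1.13, −0.27 to 2.52), Plxna3 (0.38, −1.12 to 1.87), Arhgap4 and Tmsb4x the interval included 0.

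Between the cell types, levels were compared within each genotype and by rank, since each library may carry its own constant. H3K27me3 in WT was at least 2-fold lower in MEFs than in EpiSCs at 10 of the 10 genes, where 78.2% of 711 genes were lower and 6.47% higher, and at 0 of the 10 after centring on the median of all genes, where 17 of the 711 were lower. H3K9me3 in WT was at least 2-fold lower in MEFs at 8 of the 10, where 68.2% of all genes were lower and 3.52% higher. After centring, 1 was lower in MEFs, Fhl1 (−1.25), and 2 were higher, Shroom2 (2.06) and Tmsb4x (1.56), where 90 of 711 genes were lower and 244 higher. At Tmsb4x the ChIP count was 6 in both libraries, and the interval before centring was wide, from −2.50 to 1.34. No gene of the 10 reached 2-fold over input for H3K9me3 in WT MEFs, where 20.3% of all genes did, nor in MD1 MEFs, where 2.92% did.

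H3K27me3 was spread over the 10 genes more widely in MD1 than in WT. It was at least 2-fold lower in MD1 MEFs than in MD1 EpiSCs at 8 of the 10 genes, where 82.5% of 726 genes were lower, and at least 2-fold higher at 1, Shroom2, where 1.93% were higher. After centring, 3 were lower in MEFs: Flna (−6.53), Msn (−5.29) and Plxna3 (−5.12). Shroom2 (3.31) and Shroom4 (1.20) were then higher in MEFs. Of all 726 genes 187 were then lower and 90 higher. The distance between the lowest and the highest H3K27me3 value of the 10 genes was 7.54 in MD1 MEFs against 1.91 in WT MEFs, and 3.38 in MD1 EpiSCs against 1.43 in WT EpiSCs. The lowest value in MD1 MEFs was that of Flna, on a ChIP count of 6. Such distances were not computed over all genes, so a wider spread particular to these genes is not shown. H3K9me3 in MD1 was at least 2-fold lower in MEFs than in EpiSCs at 2 genes, Tmsb4x and Plxna3, where 19.0% of all genes were lower and 10.3% higher, and the interval at Tmsb4x (−6.22 to 1.02) included 0.

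**Figure D4:**
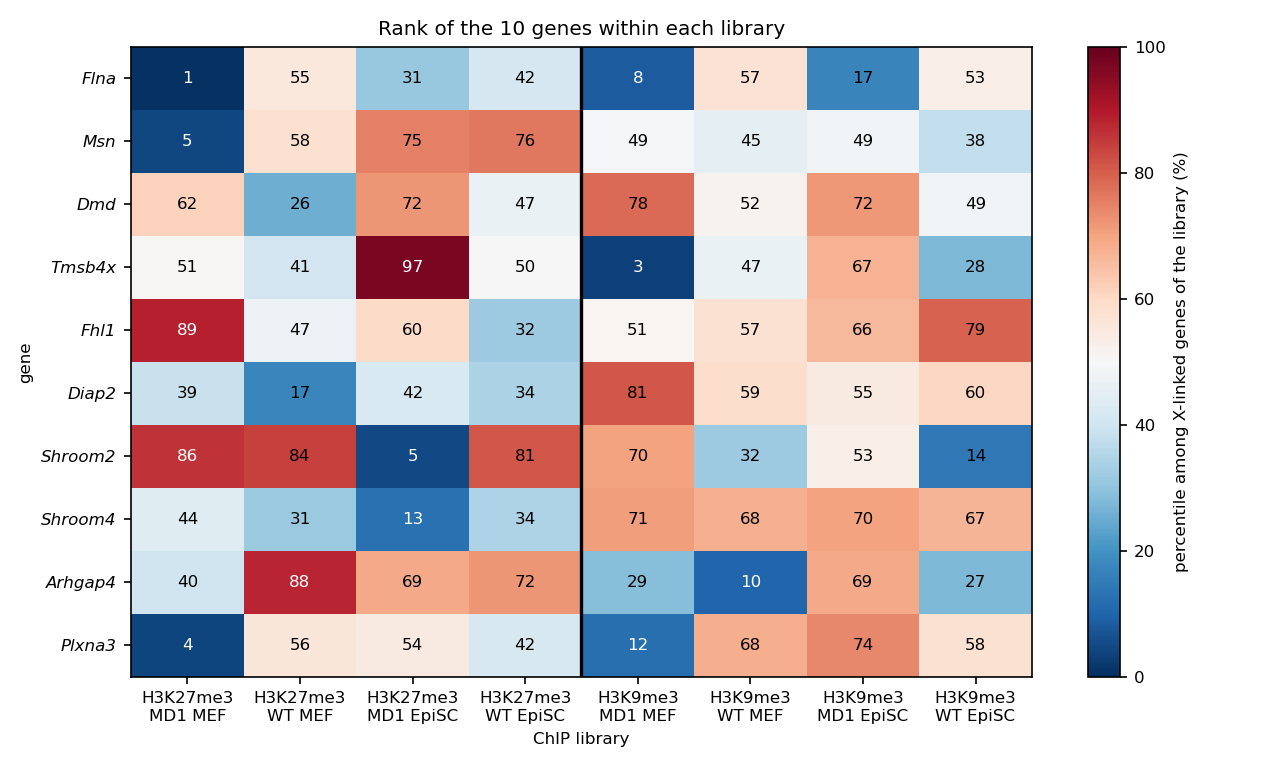
Percentile of each of the 10 genes among all X-linked genes with a value in the same ChIP library (0 is the lowest). Columns are the 8 libraries, H3K27me3 left of the black line and H3K9me3 right of it. In the H3K27me3 library of MD1 MEFs Flna, Msn and Plxna3 are all under the 5 percentile, and Shroom2 is at 86.1 there and at 4.89 in MD1 EpiSCs.

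Other X-linked genes of actin binding, assembly and membrane linkage were taken as a list of 11 rows, with Tmsb15b2 and Tmsb15l sharing 1. Their H3K27me3 in MD1 MEFs gave 0 of 11 at least 2-fold lower and 2 higher, against the same 24.0% and 22.3% of all genes. The median change was 0.55. The 2 higher were Was, the Wiskott-Aldrich protein that activates branched actin assembly (1.20 in MD1 MEFs and −0.66 in WT MEFs, a change of 1.86, 1.11 to 2.61), and Mpp1, a membrane scaffold of red cells (3.33 in MD1 MEFs and 2.19 in WT MEFs). After centring on the median of all genes Was was still called higher (1.58), but Mpp1 was not (0.85). The 1 gene of the 11 with a deposited change below 0 was Plxnb3, a plexin gene like Plxna3. It had 2.10 in MD1 MEFs and 2.58 in WT MEFs. The interval of that change (−0.97 to 0.0016) included 0, so its direction is not settled.

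In MD1 EpiSCs the median H3K27me3 change of the 9 listed rows with values was −0.31. Of these 1 was at least 2-fold lower, against 11.3% of all genes, and 4 were higher, against 22.7% of all genes. The lower one was Plxnb3 (3.77 in MD1 EpiSCs and 4.89 in WT EpiSCs, a change of −1.12, −1.61 to −0.63). The higher ones were led by Was (3.93 in MD1 EpiSCs and 1.05 in WT EpiSCs, a change of 2.87, 2.08 to 3.67). Of the others, the bundling protein gene Pls3 had a change of 1.19 (0.97 to 1.41). Tmsb15b1 had 1.98 (0.49 to 3.47), and the shared row of Tmsb15b2 and Tmsb15l had 1.01 (0.39 to 1.64). These Tmsb15 genes are paralogues of Tmsb4x whose reads may be split between near-identical copies. The change at Tmsb15b1 rested on input counts of 7 in MD1 EpiSCs and 11 in WT EpiSCs.

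H3K9me3 was at least 2-fold lower in MD1 at 6 of 11 listed rows in MEFs, where 51.3% of all genes were lower, and at 8 of 9 in EpiSCs, where 82.9% were, with 0 higher in both. These counts were near the shares of all genes. The median changes were −1.20 in MEFs and −3.32 in EpiSCs. In MEFs the lowest value was at Actrt1, an actin-related protein gene (−3.83, −7.31 to −0.35), on ChIP counts of 1 in MD1 and 7 in WT, too few to rank it. Was, with larger counts, had a change of −3.24 (−4.30 to −2.17). In EpiSCs the lowest value was at Was (−2.44 in MD1 EpiSCs and 4.44 in WT EpiSCs, a change of −6.88, −8.44 to −5.33). Its MD1 EpiSC value rested on a ChIP count of only 4 against 63 in the input.

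Serum response factor, which controls many actin genes, binds the CArG box. The 250 bases before each start were searched for it, and the motif reads the same on both strands. Of 17 RefSeq promoter entries of the 10 genes 2 held it, the most upstream of 2 entries of both Dmd and Fhl1, as did 3.19% of the 1223 X-linked entries and 1.47% of all 32851 entries. These windows are shown with the CArG box in capitals, as the 2 muscle genes among those with higher H3K27me3 in MD1 MEFs.
Dmd (chrX:82948620-82948869, plus strand): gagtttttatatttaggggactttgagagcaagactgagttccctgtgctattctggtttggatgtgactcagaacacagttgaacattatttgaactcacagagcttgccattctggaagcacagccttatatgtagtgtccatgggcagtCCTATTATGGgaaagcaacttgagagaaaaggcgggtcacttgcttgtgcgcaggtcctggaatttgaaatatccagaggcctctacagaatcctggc
Fhl1 (chrX:56779433-56779682, plus strand): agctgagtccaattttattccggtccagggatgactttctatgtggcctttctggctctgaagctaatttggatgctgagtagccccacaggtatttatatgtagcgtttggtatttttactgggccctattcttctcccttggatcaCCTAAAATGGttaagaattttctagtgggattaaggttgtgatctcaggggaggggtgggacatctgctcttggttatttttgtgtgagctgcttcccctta
The box begins 98 bases before the start in Dmd and 102 bases before it in Fhl1, and both windows hold 2 CpG dinucleotides, fewer than the most upstream entries of the other 8 genes. Diap2, the third gene called higher in MD1 MEFs, held none in its window. A match is a description of the sequence and says nothing of binding in these cells.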

How the data were processed

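The authors deposited 1 log2 enrichment value per X-linked gene and ChIP library. The tools named in the submitters' processing notes are BWA, cutadapt and SAMtools, and the build is mm9. The sources used here do not give versions, the counting rule, the allele that the reads come from or any minimum coverage. In each library 100% of the values matched a ratio of whole numbers times 1 constant (denominators up to 1000000, relative tolerance 3e-13). The pairs used are the smallest that give each value, with 1 denominator for the 2 marks of the same cells, so real counts may be multiples of them, in which case the printed intervals are too wide. Intervals are normal approximations on the log scale and are rough for counts of a few reads. The recovery was tested on simulated data. Python 3.11.15, numpy 2.4.6 and pandas 2.3.3 were used.

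Starts are printed counted from 1. A percentile is the share of genes in the library, or in the comparison, with a lower value. Calls were made at 2-fold over all genes with both values. No test across samples was possible with 1 library per group. The genes, the list of other actin genes and the settings were chosen with earlier results of these data known. All 10 genes are named, with the nearest gene on each side that has all 8 values, and from the list the largest 2-fold decrease and increase whose interval excludes 0. Plxnb3 in MEFs, Mpp1, Pls3 and the Tmsb15 rows fell outside that rule and were named after their values were seen. Some values that this rule takes in are not reported here. Alternatives were a pseudocount of 0.1, a 3-fold threshold, a pair of centrings, a minimum input count of 20 and leaving out the lowest 10% of genes.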

Additional observations from a re-analysis of the deposited data

Results flagged for a closer look

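The H3K27me3 changes of both Shroom genes ran in opposite directions in the 2 cell types, with counting intervals that excluded 0 in both. The change (MD1 minus WT) of Shroom2 was 0.29 in MEFs and −3.37 in EpiSCs. That of Shroom4 was 0.54 in MEFs and −0.77 in EpiSCs. With 1 library per group these differences were not tested across samples. After centring on the median of all genes the MEF change of Shroom2 was 0.0040, so its direction there depends on the scale of the libraries, while the EpiSC change was −3.27.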

How the results depend on the processing

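No paired analysis was possible because each group held 1 library, and for the same reason no replicate could be left out. The lower H3K27me3 at Flna, Msn, Plxna3 (MEFs) and Shroom2 (EpiSCs) kept their direction and a size of at least 2-fold under both centrings and the pseudocount. Centring on the median of all genes moved H3K27me3 changes in MEFs by −0.29 and left 0 genes higher. It moved H3K9me3 changes by 1.19 in MEFs, with 3 lower and a median of 0.066, and by 3.30 in EpiSCs, with 1 lower, 3 higher and a median of 0.25. Single H3K9me3 calls that turned to the other sign were Msn (0.91), Dmd (0.51), Tmsb4x (1.95) and Arhgap4 (2.04) in EpiSCs, and Msn (0.12) and Shroom4 (0.016) in MEFs. Between MEFs and EpiSCs it left 0 lower for WT H3K27me3, 1 lower and 2 higher for WT H3K9me3, and 3 lower and 2 higher for MD1 H3K27me3. Centring on genes without 2-fold H3K9me3 in WT gave H3K27me3 in EpiSCs a median of 0.51 and 2 higher, where 224 of 708 genes were. It left 0 higher for H3K27me3 in MEFs, where 118 of 739 genes were higher. For H3K9me3 it gave a median of −1.86 in EpiSCs and of −0.14 in MEFs. In MEFs 3 were then lower for H3K9me3, where 187 of 739 genes were. At 3-fold in MEFs, 0 were higher for H3K27me3, where 85 of 739 genes were. At that threshold 3 were lower for H3K9me3 in MEFs, where 244 of 739 genes were. With input counts of at least 20, which drops Tmsb4x, the H3K27me3 median in EpiSCs was −0.14 in place of 0.04. The pseudocount, the filter on the lowest 10% and calls that also asked for an interval excluding 0 (added after the data were seen) left each count within 1.5 times. Depth limits Tmsb4x most, with H3K9me3 ChIP counts of 1 to 6.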

Other observations

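Gene length went with some of these values, as a description chosen after they were seen. The 4 genes of the group that span at least 150 kb (Dmd, Diap2, Shroom4 and Shroom2) had H3K9me3 between −0.80 and −0.43 in MD1 MEFs, and the other 6 between −3.53 and −1.24. The lowest of these 6, Tmsb4x, rested on a ChIP count of 1. In MD1 EpiSCs the ranges overlapped, with −1.22 to −0.82 at the 4 genes and −1.96 to −0.76 at the other 6. Over all X-linked genes the MD1 MEF median was −0.91 for the 55 genes of that length and −1.34 for the 699 shorter ones. In WT MEFs the medians ran the other way, at −0.37 for the 55 long genes and −0.042 for 692 shorter ones. H3K27me3 was at least 2-fold lower in MD1 MEFs at 2 of the 55 long genes and at 175 of 684 shorter ones, and among the 10 genes at 0 of 4 and 3 of 6. In EpiSCs it was lower at 1 of the 55 long genes and at 79 of 653 shorter ones, but among the 10 genes at 1 of 4, Shroom2, and 0 of 6. Whether length plays a part was not tested.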
